A study of Macaca mulatta with 20 samples.

Results

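F3, TFPI2, PTX3 and AREG are genes known for their induction in the follicle around ovulation, and they were followed here through the life of the corpus luteum of the rhesus macaque. They were picked, with earlier results of these arrays known, for a decline after the early luteal stage. Every probe set whose only gene symbol was 1 of the 4 was taken, which gave 8 probe sets of 4 genes, out of 24956 single-symbol probe sets of 14132 genes. F3, PTX3 and AREG had 1 probe set each and TFPI2 had 5. On the arrays F3, TFPI2 and PTX3 were high at the early stage and low at each later one. AREG did not go with the other 3: its arrays at the mid and mid-late stages overlapped with those at the early stage, and it was lowest at the very-late stage.

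The corpus luteum is the gland that the ovulated follicle turns into and that secretes progesterone. Total RNA of 20 glands was hybridised to Affymetrix rhesus arrays, 1 array per gland, with 4 glands at each of 5 stages. All came from female macaques with normal menstrual cycles, taken in natural cycles and timed from the surge of luteinizing hormone (LH): days 3 to 5 for early glands, 7 to 8 for mid, 10 to 12 for mid-late, 14 to 16 for late and 18 to 19 for very-late ones. The labels number the glands of a stage as biological replicates and give no ages, and p-values measure the spread between these 20 glands.

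The LH surge makes granulosa cells and the cumulus cells around the oocyte switch on a short-lived set of genes. Amphiregulin, the product of AREG, is an EGF-like ligand that is shed from the cell surface and passes the LH signal on through the EGF receptor. PTX3 is a secreted pentraxin that holds together the hyaluronan matrix of the expanding cumulus. F3 encodes tissue factor, the membrane receptor for factor VII that starts blood clotting, and TFPI2 encodes a secreted Kunitz-type inhibitor of plasmin and other serine proteases.

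Values are log2 RMA values as deposited. They compare arrays within a probe set, and not 1 gene with another. The 95th percentile of the means of 674 viral-genome probe sets, 4.30, served as the level of background, called the viral level below. The number of arrays limits the precision. Array medians lay between 3.88 and 3.98. On 6 probe sets of the mitochondrial genome, 7 arrays averaged 7.02 to 8.93 and the other 13 averaged 11.5 to 12.5. The low group held every mid array and 1 array of each other stage but late, which were replicate 4 of early, replicate 1 of mid-late and replicate 2 of very-late, while all 4 late arrays belonged to the 13, so that stage and this split cannot be told apart between late and mid. The measured luteal markers STAR, HSD3B2 and INHA, 3 of 6 listed, were above the viral level at all 5 stages, as the tissue label has it. In whole glands, fewer cells of a type and less RNA per cell cannot be told apart.

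**Figure D1:**
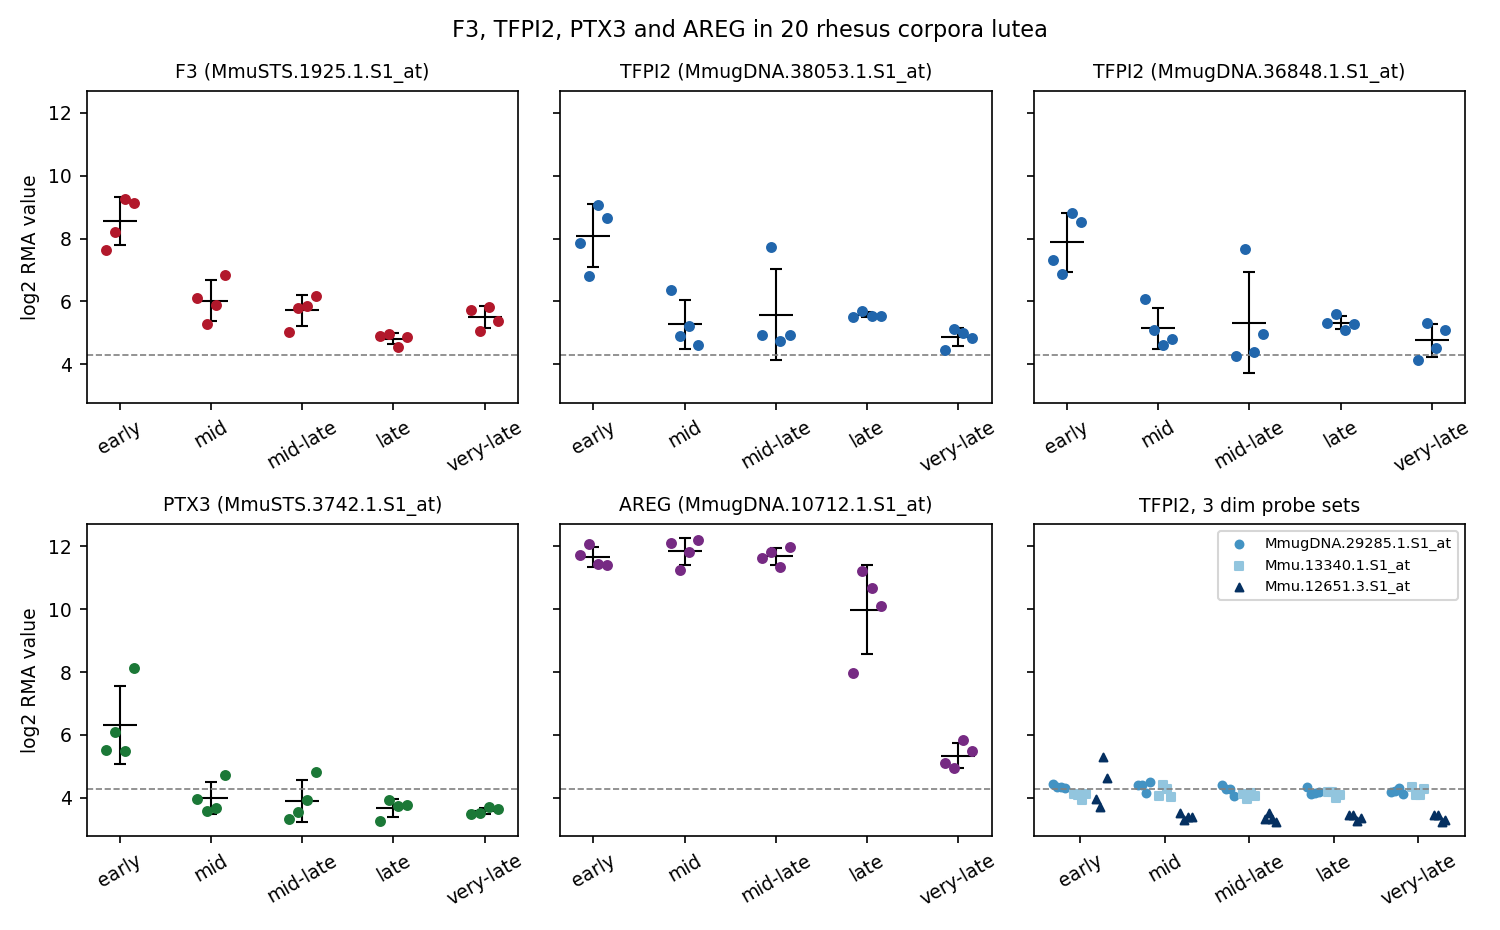
Log2 RMA values of the 8 probe sets in each of 20 arrays by stage (points), with stage mean and SD (black, n = 4) and the viral level of 4.30 (dashed). F3, the 2 bright TFPI2 probe sets and PTX3 stand highest at early, with 1 mid-late array high for TFPI2, while AREG stays above 11 until mid-late and is lowest at very-late.

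F3, tissue factor, was read by MmuSTS.1925.1.S1_at. At the early stage the 4 arrays read 7.64, 8.20, 9.26 and 9.13. At mid they read 6.10, 5.28, 5.88 and 6.85, and at mid-late 5.02, 5.80, 5.87 and 6.17. At late they read 4.91, 4.95, 4.56 and 4.87, and at very-late 5.72, 5.07, 5.83 and 5.37. Every array after the early stage lay below every early array, and every array lay above the viral level. Stage means were 8.56 ± 0.77, 6.03 ± 0.65, 5.72 ± 0.49, 4.82 ± 0.18 and 5.49 ± 0.35 in order of stage (SD, n = 4 each). The log2 difference from early was -2.53 at mid, a 5.77-fold lower level, and -3.73 at late, a 13.3-fold lower level. These are the values by which F3 was picked, and they carry no test. Mid overlapped with mid-late, and mid-late with very-late, so these neighbours in the order of levels were not separated. The lowest very-late array stood just above the highest late array.

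F3 was lower than at early within both parts of the mitochondrial split. Among the low arrays, the 4 mid arrays read 5.28 to 6.85 and the 1 early array 9.13. Among the high arrays, the 3 mid-late arrays averaged 5.95, the 4 late arrays 4.82 and the 3 very-late arrays 5.64, against 8.36 in the 3 early arrays.

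TFPI2, the protease inhibitor, was also highest at early in its 2 bright probe sets. MmugDNA.38053.1.S1_at read 7.85, 6.81, 9.06 and 8.66 at early, then 6.38, 4.89, 5.22 and 4.60 at mid. It read 4.94, 7.73, 4.73 and 4.92 at mid-late. At late it read 5.52, 5.69, 5.55 and 5.53, and at very-late 4.46, 5.12, 5.01 and 4.85. The mid, late and very-late arrays all lay below the early ones. At mid-late, replicate 2 at 7.73 fell within the early range while the other 3 arrays lay at 4.73 to 4.94. Stage means were 8.09 ± 0.99, 5.27 ± 0.78, 5.58 ± 1.44, 5.57 ± 0.08 and 4.86 ± 0.29 (SD, n = 4 each). The mean difference from early was -2.82 at mid, -2.51 at mid-late, -2.52 at late and -3.23 at very-late, again without a test. Without mid-late replicate 2 the mid-late difference was -3.23.

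The second bright probe set of TFPI2, MmugDNA.36848.1.S1_at, gave the same picture. Its early arrays read 7.31, 6.88, 8.82 and 8.54, and its mid-late arrays 4.26, 7.68, 4.41 and 4.97, with replicate 2 again high. Its differences from early were -2.74 at mid, -2.56 at mid-late, -2.56 at late and -3.12 at very-late, and -3.34 at mid-late without replicate 2. Across the 20 arrays the 2 probe sets correlated at r = 0.979, and at r = 0.939 after subtracting stage means. They read the same RNA samples and the same gene, so this describes how well the 2 measurements match. The remaining 3 probe sets of TFPI2 were dim. The dimmest read 3.96, 3.70, 5.30 and 4.64 at early, and every later array of it lay below the viral level. The early arrays at 3.96 and 3.70 were below it too, so no fold is given. Another ran from 3.92 to 4.41 and MmugDNA.29285.1.S1_at from 4.08 to 4.50 over all 20 arrays, near the viral level at every stage, and did not show the early peak.

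PTX3, the pentraxin of the cumulus matrix, was read by MmuSTS.3742.1.S1_at. Its early arrays read 5.52, 6.08, 5.51 and 8.14. The mid arrays read 3.95, 3.60, 3.69 and 4.74, and the mid-late arrays 3.32, 3.54, 3.93 and 4.83. The late arrays read 3.27, 3.93, 3.75 and 3.76, and the very-late arrays 3.50, 3.51, 3.71 and 3.64. All later arrays lay below all early ones, and replicate 4 was the highest array of the early, mid and mid-late stages. Above the viral level were 4 of 4 arrays at early, 1 at mid, 1 at mid-late and 0 at late and very-late. Stage means were 6.31 ± 1.25, 4.00 ± 0.52, 3.90 ± 0.67, 3.68 ± 0.29 and 3.59 ± 0.10 (SD, n = 4 each). Since the late and very-late arrays were all at background, these stages were at least 4.04-fold lower than early, and at least 2.65-fold lower without early replicate 4, the array at 8.14. With 3 of 4 arrays at background at mid and mid-late, no fold is given for these stages. Early replicate 4 also belonged to the low mitochondrial group. Among high arrays the 3 mid-late arrays ran up to 4.83, against 5.51 to 6.08 in the 3 early arrays.

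AREG, amphiregulin, was read by MmugDNA.10712.1.S1_at, and its course over the stages was not that of the other genes. Its early arrays read 11.73, 12.07, 11.44 and 11.40. The mid arrays read 12.09, 11.26, 11.80 and 12.18, and the mid-late arrays 11.62, 11.80, 11.34 and 11.97. All 3 stages lay within 11.26 to 12.18 and overlapped with each other. The late arrays read 7.97, 11.20, 10.66 and 10.09, and the very-late arrays 5.11, 4.95, 5.84 and 5.48. Every late array stood below every earlier-stage array and every very-late array below every late one, and late replicate 1, at 7.97, was the lowest of its stage. Stage means were 11.66 ± 0.31, 11.83 ± 0.42, 11.68 ± 0.27, 9.98 ± 1.42 and 5.34 ± 0.40 (SD, n = 4 each). The differences from early were 0.17 at mid, 0.02 at mid-late, -1.68 at late and -6.32 at very-late, the last a 79.7-fold lower level. A decline right after the early stage, for which the gene was picked, was thus not seen for AREG.

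The stages after early were compared with each other in limma, with Benjamini-Hochberg adjustment over 52707 probe sets, and an adjusted p under 0.05 counts as passing. These contrasts hold no early array, but the genes were chosen on the course of the same arrays, so a call is not independent evidence. Between mid-late and mid, 0 of the 8 probe sets passed, against 0.0114% of all probe sets. An unadjusted p under 0.05 was reached by 0 there, against 6.56% of all. Between late and mid-late 0 passed in limma, against 0.0114% of all. At an unadjusted p under 0.05 were 2 there, F3 and AREG, against 6.39% of all. Between late and mid 1 of 8 passed, AREG, against 2.17% of all, and 3 were at an unadjusted p under 0.05, against 14.1%. The 3 were AREG, F3 and the dim TFPI2 probe set MmugDNA.29285.1.S1_at, whose means of 4.19 at late and 4.38 at mid were near the viral level. Between very-late and late 1 of 8 passed, again AREG, against 13.8% of all, and 1 was at an unadjusted p under 0.05, against 24.2%.

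AREG fell by 4.64 ± 0.46 log2 units (SE) in very-late against late, a 24.9-fold lower level (limma adjusted p = 1.68e-06). Very-late replicate 1 stood apart in 1 measure of RNA quality, GAPDH signal at the 3' over the 5' end, at 2.70 log2 units against 0.831 to 1.78 in the other 19 arrays. Without it the AREG difference was -4.56 (adjusted p = 1.2e-05), and without very-late replicates 1 and 2 it was -4.32 (adjusted p = 9.44e-05). The call held in each of 20 fits that left out 1 array, and among the arrays high in mitochondrial signal the 3 very-late ones averaged 5.47, against 9.98 in the 4 late ones. AREG also fell in late against mid, by 1.85 ± 0.46 (limma adjusted p = 0.0435). That second call was fragile: it held without late replicate 1 or 2 or very-late replicate 1, 2 or 3 and was lost in the other 15 of 20 fits that left out 1 array, with adjusted p up to 0.106. The difference was -1.18 without late replicate 1 (adjusted p = 0.0331). With a term for the mitochondrial split it was -2.17 (adjusted p = 0.217). All mid arrays were low and all late arrays high, so that fit takes the split from the other stages and cannot settle its part here. In late against mid-late the 2 stages did not overlap, at a difference of -1.70, but the test was not passed (limma adjusted p = 0.310).

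F3 passed in no contrast between the later stages. Its difference was -1.20 ± 0.35 in late against mid (limma adjusted p = 0.0830), with all 4 late arrays under all 4 mid arrays. It was -0.89 ± 0.35 in late against mid-late (limma adjusted p = 0.637). In very-late against late it was 0.67 ± 0.35 (limma adjusted p = 0.257). The bright TFPI2 probe set MmugDNA.38053.1.S1_at had a difference of -0.71 ± 0.56 in very-late against late (limma adjusted p = 0.507). PTX3, near background at all these stages, had limma adjusted p-values of 0.840 to 0.999.

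**Figure D2:**
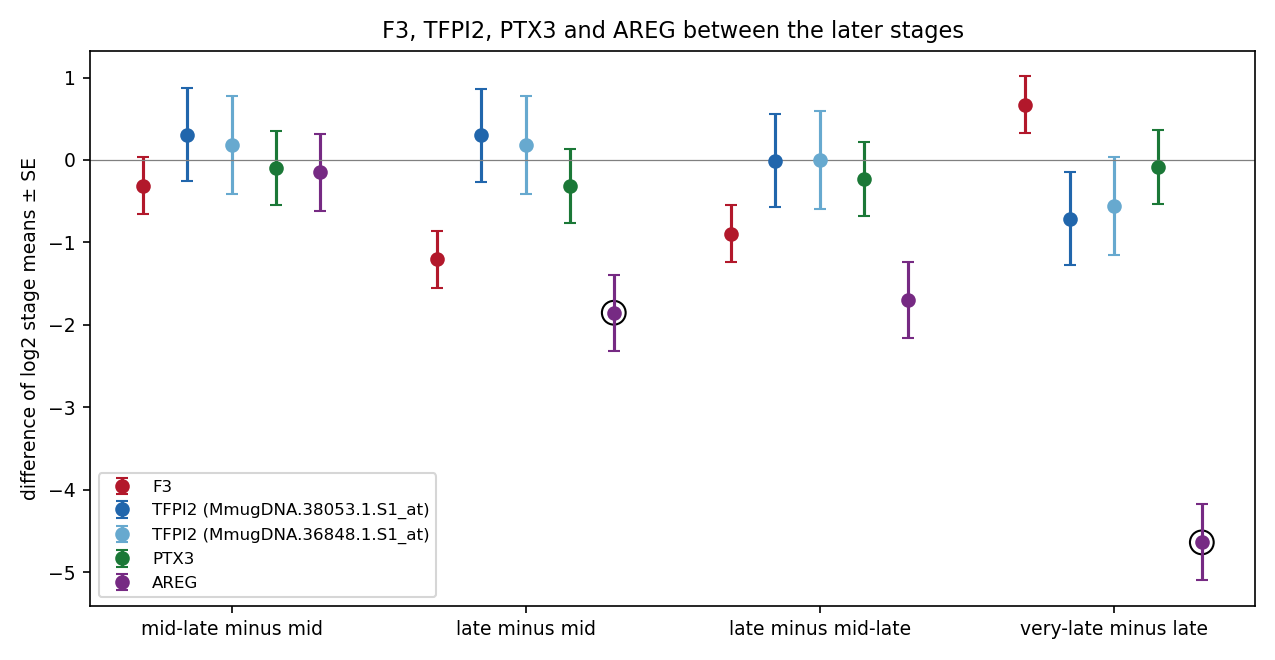
Differences of log2 stage means between the later stages (points) with their standard errors in the limma fit (bars) for F3, 2 TFPI2 probe sets, PTX3 and AREG. The ringed points passed the test: AREG at -1.85 in late against mid and at -4.64 in very-late against late.

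Where AREG fell, at the very-late stage, markers of several cell types moved as well. All 3 measured markers of luteal steroidogenic cells fell in very-late against late, and the log2 of their summed level was 8.55 to 11.17 in the very-late arrays, against 13.78 to 14.01 in the late arrays. Of 4 measured macrophage markers 2 rose, and their log2 sum was 11.62 to 12.41 in the very-late arrays, against 9.69 to 10.44 in the late arrays. The part of any of these markers in the AREG difference was not tested. Over all genes 10.2% rose and 11.2% fell in that contrast. Of the other lists, 2 of 4 granulosa and cumulus markers fell, with a median difference of -1.95, as did 2 of 6 endothelial markers. The fall was also seen in 1 of 2 pericyte and smooth muscle markers and 1 of 4 fibroblast markers, and the 1 measured T cell marker rose. In late against mid, 3 of 4 macrophage markers rose, against 1.58% higher over all genes. Lower were 1 of 3 luteal, 2 of 2 erythrocyte and 1 of 4 platelet markers, against 1.98% over all genes. In mid against early, where F3, TFPI2 and PTX3 were already lower, 0 of the 3 luteal, 0 of 4 granulosa and cumulus and 0 of 4 macrophage markers passed in limma. At an unadjusted p under 0.05 were 0, 1 and 3 of these, against 14.8% of all genes. The granulosa and cumulus marker was higher at mid. Of the 3 macrophage markers 1 was higher and 2 lower, and the 4 measured had a median difference of -0.70. Their part in the differences of F3, TFPI2 and PTX3 was not tested. Over all 12 marker lists 1 gene passed in that contrast, a marker of erythrocytes, which was higher at mid, against 0.594% of all genes that passed.

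**Figure D3:**
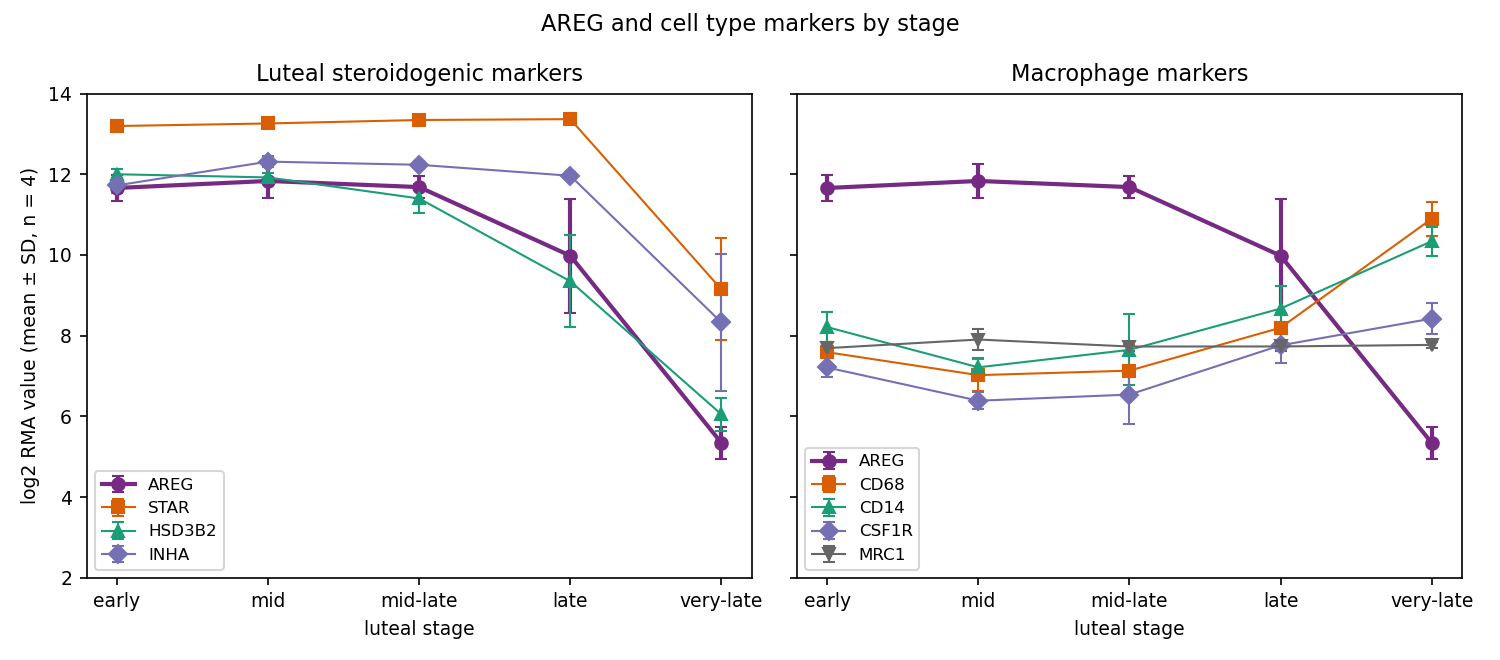
Stage means ± SD (n = 4) on the log2 RMA scale for AREG with the 3 measured luteal markers (left) and the 4 measured macrophage markers (right). AREG and the luteal markers are lowest at very-late, where CD68 and CD14 are highest. Heights of different genes cannot be compared.

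Among themselves, F3, TFPI2 and PTX3 ran together mainly by stage. Over the 20 arrays F3 correlated with PTX3 at r = 0.886 and with the bright TFPI2 probe set at r = 0.755, and TFPI2 with PTX3 at r = 0.687. After subtracting stage means these were 0.561, 0.227 and -0.066, so little of the link of TFPI2 with the other genes was left within stages. The arrays share stage and the mitochondrial split, and the 3 genes were picked for the same course.

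The genes most like each of them, by Pearson correlation over the 20 arrays among 1 probe set per gene, are named here as a description. For F3 these were OSMR, the oncostatin M receptor (r = 0.943), AIMP2 (0.911), CAMSAP1 (0.892), TMEFF2 (0.891) and PTHLH, parathyroid hormone-like hormone (0.887). The OSMR mean was 10.63 at early, 9.67 at mid and 9.31 at late. For TFPI2 they were DMKN (0.902), TRIP13 (0.871), CDT1, which licenses replication origins (0.861), MRM3 (0.850) and LOC698161 (0.841), the last at background on every array. For PTX3 they were TMPRSS7 (0.923), ENPP3 (0.901), TM4SF1 (0.896), KCNG3 (0.894) and TIPIN (0.893). For AREG they were SLAIN1 (0.990), APPL2 (0.982), HSD3B2, the enzyme that makes progesterone (0.980), MRAP, the accessory protein of melanocortin receptors (0.979) and WNT5A, a secreted WNT ligand (0.975). WNT5A had stage means of 10.04, 10.30, 9.99, 9.53 and 5.89 in order of stage. The choice depends on the measure: by Spearman correlation 2 of the 5 for F3, 0 for TFPI2, 0 for PTX3 and 1 for AREG were still among the top 5.

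Genes of the pathways around these 4 were read from 9 lists, with 77 of 101 genes measured, each by its brightest single-symbol probe set. The lists were drawn up with earlier results of these arrays known. In mid against early 1 of the 77 passed, against 0.594% of all genes, and 7 of 77 were higher and 9 lower at an unadjusted p under 0.05, against 5.41% and 9.36% of all genes. That gene was NPTX2, a neuronal pentraxin related to PTX3, which rose by 1.98 ± 0.39 (limma adjusted p = 0.0355), while PTX3 was lower at mid. With a term for the mitochondrial split, in which all 4 mid arrays and 1 early array were low, the NPTX2 difference was 2.07 and did not pass (adjusted p = 0.102), nor did it on the arrays of the 2 stages alone (adjusted p = 0.0956). Between late and early 13 of 77 passed, against 12.3% of all genes, with 3 higher (4.22% of all genes) and 10 lower (8.07%). The median difference of the lists was -0.01, against -0.02 over all genes. In mid-late against mid 0 list genes passed in limma (0.0142% of all genes), with 2 higher and 6 lower at an unadjusted p under 0.05 (3.03% and 5.48% of all genes). In late against mid-late 0 passed in limma (0.00708% of all genes), with 4 higher and 6 lower at an unadjusted p under 0.05 (4.66% and 3.64%).

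In the clotting pathway, F2RL1, the protease-activated receptor that trypsin-like proteases and the factor VIIa and tissue factor complex can cleave, fell by 3.11 ± 0.55 in late against early (limma adjusted p = 0.00198). Its stage means were 9.93, 8.44, 7.81, 6.82 and 5.42. F5, the cofactor of factor Xa, was at 4.99 ± 0.11 in late arrays and 6.91 ± 0.74 in early arrays (SD, n = 4 each), a fall of 1.92 (limma adjusted p = 0.0035). PLAUR, the urokinase receptor, fell by 1.63 (adjusted p = 0.0187), and ANXA2 by 0.51 (adjusted p = 0.0426), while the second probe set of ANXA2 did not pass, at a difference of 0.04. SERPIND1, heparin cofactor II, an inhibitor of thrombin, rose by 1.94 ± 0.36 (limma adjusted p = 0.00277), and F13A1 was higher by 0.38, with its other probe set not passing. Of 20 fits that left out 1 array, ANXA2 failed in 11, F13A1 in 5 and PLAUR in 2. The calls in the clotting lists went both ways. Of 12 coagulation factors measured 1 rose and 1 fell, and of 9 inhibitors 1 rose and 0 fell. Of 3 protease-activated receptors 1 fell, F2RL1, and of 7 fibrinolysis genes 2 fell. Over all genes 4.22% rose and 8.07% fell in late against early. Averaged over its probe sets, F13A1 differed by 0.06 and did not pass (limma adjusted p = 0.939).

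In very-late against late, 20 of the 77 list genes passed, against 21.4% of all genes, with 5 higher (10.2% of all) and 15 lower (11.2%). SERPIND1 fell by 3.37 (limma adjusted p = 3.85e-06) and SERPINA5, the inhibitor of activated protein C, by 3.03 (adjusted p = 0.0086). PROS1, protein S, a cofactor of activated protein C, rose by 1.22 (limma adjusted p = 0.0018), and PLAU, urokinase, rose by 1.27 (adjusted p = 0.000567). SERPINE2 fell by 1.38, PROCR by 0.70 and F13A1 by 0.93. The very-late arrays of PROCR, up to 4.16, were all at background. F2R, the thrombin receptor, had a fall of 0.82 on its brighter probe set, while its other probe set passed in the opposite direction, so no direction is given. The second probe set of SERPINA5 and of F13A1 did not pass. Of 20 fits that left out 1 array, PROCR failed in 6 and SERPINE2 in 2.

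Of the hyaluronan matrix, 1 of 12 measured genes passed in late against early, VCAN, versican, which fell by 1.19 ± 0.30 (limma adjusted p = 0.0199). In very-late against late VCAN fell by a further 1.01, with overlapping arrays. TNFAIP6, which links hyaluronan to inter-alpha-inhibitor proteins and binds PTX3, had differences of -0.72 in mid against early and -0.41 in late against early. Both went the way of PTX3 but did not pass (limma adjusted p = 0.610 and 0.703), which does not exclude a change of TNFAIP6. In very-late against late it fell, to 5.73 ± 0.91 in very-late arrays, against 8.53 ± 0.25 in late arrays (limma adjusted p = 0.000146). CD44, the hyaluronan receptor, was higher by 0.97 in the same contrast (adjusted p = 0.00222). Its late arrays, up to 3.81, were all at background, so this value is no measured fold. On the arrays of the 2 stages alone CD44 did not pass (limma adjusted p = 0.0697). Of the pentraxins and PTX3 partners, C1QB and C1QC, subunits of the C1q that PTX3 binds, rose by 1.76 and 1.81 in late against mid (limma adjusted p = 0.0437 and 0.0403), and NPTX2 fell by 1.59 in late against mid and by 4.20 in very-late against late (adjusted p = 0.042 and 7.57e-07). The part of the macrophage markers that were higher at late in the C1QB and C1QC difference was not tested. In late against mid 5 of 77 list genes passed, 2 higher (1.58% of all genes) and 3 lower (1.98%), 1 of them PGR, whose late and mid means were at background, against 3.56% of all genes, and with a term for the mitochondrial split 0 passed. Of 20 fits that left out 1 array, C1QB failed in 12, C1QC in 8, and NPTX2 in 9 in late against mid and in 7 in mid against early. VCAN failed in 3 in late against early and in 6 in very-late against late.

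Of the EGF receptor pathway, EGFR, the receptor of amphiregulin, rose by 1.09 ± 0.26 in late against early (limma adjusted p = 0.0155), and fell by 1.48 in very-late against late (adjusted p = 0.000727). HBEGF, another EGF-like ligand, fell by 1.79 in very-late against late (limma adjusted p = 0.00599), with its second probe set not passing. In RefSeq's gene order AREG stands between BTC and EREG, with EPGN beyond, all EGF-like ligands. EREG and EPGN had no single-symbol probe set and were not analysed here, and 2 of the 6 EGF-like ligands measured were above the viral level on average.

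Among other genes that the LH surge induces, 5 of 17 measured fell in late against early and 0 rose, against 8.07% lower and 4.22% higher over all genes. RGS2, a regulator of G protein signalling, fell by 1.62 ± 0.40 (limma adjusted p = 0.0186), RUNX1 by 1.29 ± 0.25 (adjusted p = 0.00324), FOSL2 by 0.98 (adjusted p = 0.00431) and CEBPB by 0.76 (adjusted p = 0.0393). RUNX1, FOSL2 and CEBPB are transcription factors. Of 20 fits that left out 1 array, CEBPB failed in 7 and RGS2 in 3. The second probe sets of RGS2 and CEBPB did not pass, at differences of -0.71 and -0.83. CEBPB also failed with cyclic loess scaling (limma adjusted p = 0.0666) and with a term for the mitochondrial split (adjusted p = 0.0664). The fifth, PGR, the progesterone receptor, had stage means below the viral level at all 5 stages, so its call is one at background, and it failed in 6 of the 20 fits. In very-late against late 2 of the 17 rose and 4 fell, against 10.2% higher and 11.2% lower over all genes. Among those that fell, HPGD, which inactivates prostaglandins, fell by 3.19 (limma adjusted p = 0.000916, all 5 of its probe sets passing). ADAMTS1, a protease that cuts versican, fell by 2.04 (adjusted p = 0.000647).

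**Figure D4:**
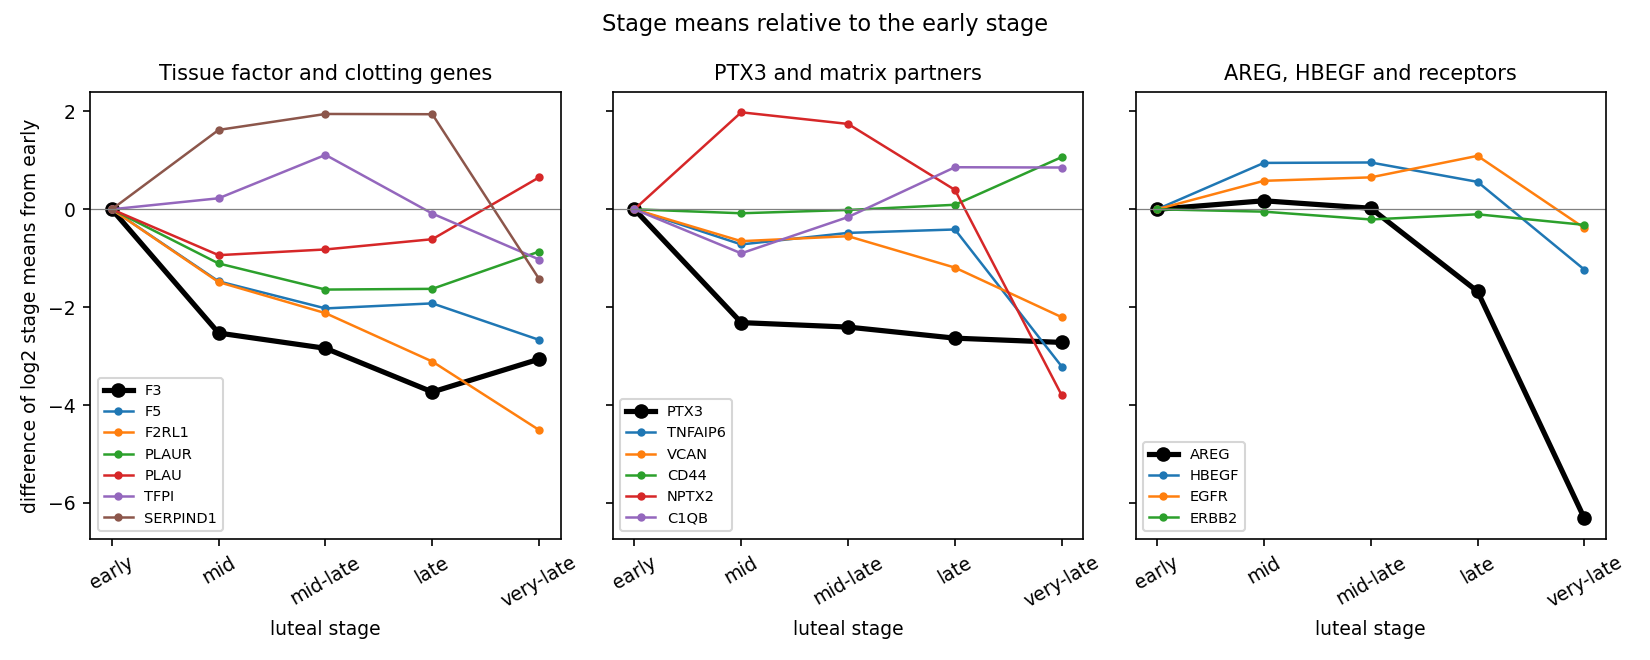
Difference of log2 stage means from early (y axis) by stage (x axis) for F3, PTX3 and AREG (black) and genes of their pathways (coloured), each read by its brightest probe set (n = 4 arrays per stage). F2RL1 and F5 lie below early at every later stage, as F3 does, NPTX2 lies above early until late, and AREG is farthest from its early level at very-late.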

How the data were processed

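Total RNA of 20 rhesus corpora lutea was extracted with Trizol, cleaned on RNeasy columns and labelled with biotin in 1 cycle, per the labels' protocols. The deposited values are log2 values made with RMA, per the submitters' processing notes. The RMA version, chip definition and any filter are not given in the sources used here. RMA sets all arrays to 1 distribution, so a shift of most genes would not be seen. The values were used as deposited.

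The table has 52865 probe sets, and the fit used 52707 of them, without the 158 controls of the array. Gene symbols came from the platform annotation. In R 4.3.3, limma 3.58.1 fitted the 5 stage means to all 20 arrays (15 residual and 2.75 prior degrees of freedom), with two-sided tests and Benjamini-Hochberg adjustment over all probe sets. Stages were taken from the sample titles. The members, gene lists and tests were chosen with earlier results of these data known. Named were the 4 genes whatever their result, in each list and contrast up to 4 genes past the test at 2-fold or more and every gene of a list with 5 or fewer past it, and the 5 genes most like each of the 4. The text gives only some of the genes this rule takes. A probe set under the viral level on all arrays of a stage has only a bound there. The bound sets the early mean against the viral level.

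Tested on simulated data of late against mid with 52707 probe sets, the procedure called 80% of changes of 1.5-fold, 86% of 2-fold, 100% of 4-fold and 100% of 8-fold, with 10 false calls. These rates hold for the simulated probe sets and not for the 4 genes. In the deposited data F3 was 2.30-fold lower in late against mid and AREG 3.25-fold lower in late against mid-late, and neither passed. A contrast that did not pass thus does not exclude changes of this size. Alternatives were other scaling, a filter on dim probe sets, the prior, array weights, the replicate block, fewer arrays in the fit, the mitochondrial split, averaging the probe sets of a gene, and leaving out each array.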

Additional observations from a re-analysis of the deposited data

Results flagged for a closer look

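TFPI2 on MmugDNA.38053.1.S1_at read 7.73 in mid-late replicate 2, far from the other 3 arrays of its stage, which read 4.73 to 4.94. Of 40 groups of 4 arrays examined among the 8 probe sets, this was the 1 that stood out, and chance alone marks about 1 in 20 such groups. The second bright probe set of TFPI2 read 7.68 in the same array.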

How the results depend on the processing

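AREG in very-late against late kept its direction and its call in 29 of 29 alternative fits (adjusted p from 3.69e-09 to 0.00307), and no tested difference of the 4 genes changed sign while past the test. AREG in late against mid was lost under a trended and robust prior (-1.85, adjusted p = 0.0566), on the arrays of the 2 stages alone (-1.85, adjusted p = 0.149) and with a term for the mitochondrial split (-2.17, adjusted p = 0.217), and ran from -2.26 to -1.18 without each array in turn. F3 in late against mid passed without dim probe sets (-1.20, adjusted p = 0.0430), with array weights (-1.30, adjusted p = 0.0276) and on the 2 stages alone (-1.20, adjusted p = 0.0499). On the 2 stages alone, F3 (0.67, adjusted p = 0.0476) and TFPI2 on MmugDNA.38053.1.S1_at (-0.71, adjusted p = 0.0147) also passed in very-late against late. The cause was not tested, except that the 2-stage fits rest on fewer arrays. The second bright probe set of TFPI2, MmugDNA.36848.1.S1_at, passed in very-late against late under no setting (lowest limma adjusted p = 0.234).

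Of the 8 probe sets, 1 passed in late against mid, 2 without dim probe sets or with array weights, and 0 under the trended prior or the mitochondrial term, with 0 to 1 without each array. In very-late against late 1 passed, and 3 on the 2 stages alone. Over all probe sets, calls in mid against early numbered 191, and 337 without dim probe sets, 534 with array weights, 25 on the 2 stages alone, 614 without very-late replicates 1 and 2, 19 with the mitochondrial term, and 30 to 433 without each array. Calls in mid-late against mid numbered 6, and 26 with array weights, 1 on the 2 stages alone, 1 with the mitochondrial term, and 1 to 21 without each array. Calls in late against mid-late numbered 6, and 21 without dim probe sets, 11 with cyclic loess, 11 with the trended prior, 185 with array weights, 89 on the 2 stages alone, 53 without very-late replicates 1 and 2, and 0 to 83 without each array. Calls in late against mid numbered 1143, and 2048 with array weights, 1900 on the 2 stages alone, 2148 without very-late replicates 1 and 2, 103 with the mitochondrial term, and 488 to 1795 without each array. Calls in late against early ran from 2588 to 4933 without each array, around 3994. Calls in very-late against late numbered 7262, and 4574 on the 2 stages alone and 4704 without very-late replicates 1 and 2.

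Of the 77 list genes, 1 passed in mid against early, and 3 without dim probe sets, 2 with array weights, 0 on the 2 stages alone, 2 without very-late replicates 1 and 2, 3 on averaging the probe sets of each gene, and 0 to 4 without each array. In late against early 13 passed, and 7 to 13 without each array, the 7 without early replicate 4 or late replicate 3. In late against mid-late 0 passed, and 1 on the 2 stages alone. In late against mid 5 passed, and 8 on the 2 stages alone, 0 with the mitochondrial term, and 0 to 7 without each array, with 0 without mid replicate 3, late replicate 1 or late replicate 4. F2R in very-late against late turned to 1.40 with the mean of its probe sets, the second of which passed in the opposite direction.

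Deviations from stage means of same-numbered arrays correlated at -0.208 to 0.214. Differently numbered arrays were not set beside them, so this range cannot settle whether equal replicate numbers pair the arrays. With the replicate block, AREG in late against mid was at -1.85 (adjusted p = 0.0610), so 0 of the 8 probe sets passed there, all-probe-set calls were 81 in mid against early and 3 in late against mid-late, and list genes passing were 0 in mid against early and 3 in late against mid. Differences from early carry no test and were recomputed only under settings that change the values or the arrays.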
